A study of Mus musculus with 4 samples.

Results

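The EGR, NR4A and IER genes and Phlda1 were followed in B16F10 cells, a mouse melanoma line that makes pigment. The 10 genes (Egr1, Egr2, Egr3, Nr4a1, Nr4a2, Nr4a3, Ier2, Ier3, Ier5 and Phlda1) were taken by symbol from a table of read counts for 27179 genes, and all 10 were found. The tested cells were given ozonated olive oil and the control cells plain olive oil, each at 0.01% of the culture for 6 h, with 2 libraries per group. All 4 cultures shared the wild-type B16F10 line and medium with 10% fetal bovine serum, so serum was present throughout, and an oil-free culture was not analysed here. Whether libraries 1 and 2 of a group were separate cultures is not stated in the labels, so p-values measure the spread between these libraries, which may be technical.

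Immediate-early genes are transcribed within minutes of a stimulus, without new protein synthesis, and their mRNAs are usually short-lived. EGR and many IER genes are driven by serum response factor (SRF) with ternary complex factors that ERK phosphorylates. NR4A genes are best known as targets of CREB after cyclic AMP signals, which in melanocytes come from the melanocortin receptor. Other early genes, such as Jun and Atf3, respond mainly to the stress kinases and to damaged proteins or lipids. The libraries were made after 6 h only, when the first transient of an early gene has usually passed, so a first peak could be missed.

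Total counts were 22766948 and 30038784 in ozonated oil libraries 1 and 2, and 22539486 and 23377947 in plain oil libraries 1 and 2. The ozonated oil pair differed more within itself (median absolute log2 difference of a gene 0.365) than the plain oil pair (0.199). Markers of the melanocyte lineage were present in every library, with 22670 and 26630 summed CPM (counts scaled to the library's total) in ozonated oil libraries and 20550 and 25540 in plain oil libraries over 10 genes, most of it from Pmel, Tyrp1 and Dct. The 10 markers did not move together. By fitted change, 5 were higher and 5 lower, with a median log2 change of 0.03. Mitf, the master transcription factor of the lineage, was at 354 and 253 CPM with ozonated oil and 692 and 614 CPM with plain oil (0.465-fold; edgeR adjusted p = 0.254). Slc45a2 (0.700-fold) and Sox10 (0.823-fold) were also lower in both ozonated oil libraries. Gpr143 was higher in both, at 79.8 and 102 CPM against 68.3 and 73.4 CPM. In bulk RNA, fewer cells of a type and less RNA per cell cannot be told apart. With edgeR's quasi-likelihood test, 0 of 12675 genes had an adjusted p below 0.05 (0% of genes called). DESeq2 called 271 genes, 2.14% of those tested. At an unadjusted edgeR p below 0.05 there were 1245 genes, or 9.82%. In 40.0% of tested genes the groups did not overlap, 19.9% with both ozonated oil libraries higher and 20.0% with both lower.

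Of the 10 early genes, 7 passed the filter on low counts, and 0 of these 7 had an adjusted edgeR p below 0.05. The median log2 change of the 7 was -0.26, against 0.04 over all genes tested, with 3 higher and 4 lower (54.0% of all tested genes were higher). In a fit with no filter, which takes in the 3 EGR genes at their few counts, 6 of 10 were higher and 4 lower and the median was 0.32, but the fitted changes of Egr2 and Egr3 against 0 counts depend on the prior count. An unadjusted p below 0.05 was found for 2 of the 7, Nr4a1 (lower) and Phlda1 (higher). The groups did not overlap for 4 of the 7, namely Nr4a1, Nr4a2 and Nr4a3, which were lower with ozonated oil, and Phlda1, which was higher. DESeq2 called Nr4a1 alone.

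**Figure D1:**
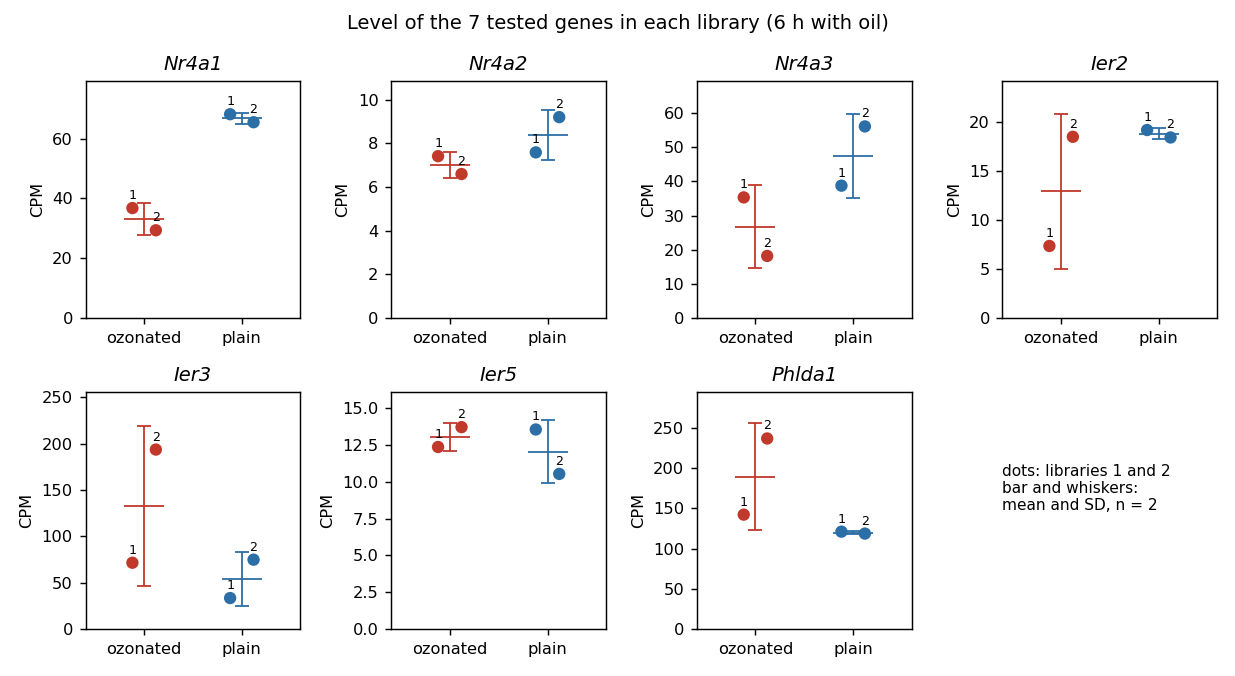
CPM (vertical axes, each from 0) of the 7 tested genes in ozonated oil libraries (red, left) and plain oil libraries (blue, right), with dots for libraries 1 and 2 and the mean and SD (n = 2). Nr4a1 is at 36.8 and 29.4 CPM against 68.1 and 65.5, while Ier2, Ier3 and Phlda1 differ mostly through 1 of the ozonated oil libraries.

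The EGR genes encode zinc-finger transcription factors that serum and ERK switch on strongly, and all 3 were close to absent in both groups. Egr1 (chromosome 18, 34861207 to 34864956 in GRCm38) had 2 and 11 counts in ozonated oil libraries 1 and 2, and 6 and 2 counts in plain oil libraries 1 and 2. Taken over each group, this was 0.246 CPM of raw counts with ozonated oil (exact Poisson 95% interval 0.131 to 0.421) and 0.174 CPM with plain oil (0.0752 to 0.343), so a difference was not detectable at this depth. Egr3 (chromosome 14, 70077317 to 70082613), which acts in nerve, muscle and immune cells, had 0 and 5 counts with ozonated oil and 0 counts in both plain oil libraries. Egr2 (chromosome 10, 67534469 to 67542188), best known from Schwann cells, had 0 and 2 counts with ozonated oil and 0 in both plain oil libraries. For Egr2 and Egr3, 0 counts over the plain oil group allow a level of up to 0.0653 CPM by the one-sided limit of 3 counts, and up to 0.0803 CPM by the two-sided exact Poisson interval used for Egr1. These intervals and limits cover counting error only. None of the 3 was tested, since each fell under the filter.

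Most EGR counts came from 1 library in each group. Summed over the 3 genes there were 2 and 18 counts in ozonated oil libraries 1 and 2, and 6 and 2 in plain oil libraries 1 and 2. Keratin transcripts of keratinocytes, another skin cell type, followed the same order within each group, but other markers of the list did not. The summed level of 7 keratinocyte markers was 2.76 and 20.2 CPM with ozonated oil and 25.9 and 5.08 CPM with plain oil, with Krt10 at 0.526 and 8.73 CPM against 8.81 and 1.01 CPM. The keratinocyte factor Trp63 was at 0 and 0.178 CPM with ozonated oil and at 0 and 0.0840 CPM with plain oil. Dsg3 was at 0 and 0.0713 CPM with ozonated oil and at 0 and 0.0420 CPM with plain oil. Both had the other order in the plain oil pair. Cdh1 had the other order with ozonated oil (1.84 and 0.820 CPM) and was about level with plain oil (1.525 and 1.512 CPM). The part of a keratinocyte trace in the EGR counts was not tested. Markers of fibroblasts (7 genes, 5.83 and 6.49 CPM against 8.18 and 7.47 CPM), leukocytes (8 genes, 6.84 and 2.42 CPM against 5.09 and 1.302 CPM) and endothelium (5 genes, 0.263 and 0.0713 CPM against 0.127 and 0.168 CPM) were low in all libraries. Twist2 (fibroblast), Adgre1 and Cd3e (leukocyte) and Cdh5 and Kdr (endothelium) had 0 counts throughout.

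Of the corepressors that bind EGR proteins, Nab1 was at 85.9 ± 8.45 CPM with ozonated oil and 96.1 ± 4.64 CPM with plain oil (SD, n = 2 each), and Nab2 at 14.7 ± 2.53 and 17.95 ± 1.46 CPM. Neither difference passed the edgeR test (adjusted p = 0.823 for Nab1 and 0.774 for Nab2). Nab2 is itself a target of EGR factors in other cells.

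The NR4A genes encode nuclear receptors whose activity follows their amount rather than a ligand. Nr4a1 (Nur77; chromosome 15, 101253902 to 101274795 in GRCm38) was at 36.8 and 29.4 CPM in ozonated oil libraries 1 and 2, against 68.1 and 65.5 CPM in plain oil libraries 1 and 2. Both ozonated oil libraries lay far below both plain oil libraries, and the plain oil pair was tight. Its log2 change was -1.01 ± 0.19 (SE; 0.495-fold; edgeR unadjusted p = 0.00169, adjusted p = 0.223), rank 94 by p among all genes tested. DESeq2 gave an adjusted p of 0.00613. With ozonated oil library 1 left out the log2 change was -1.22, and with ozonated oil library 2 left out it was -0.87.

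Nr4a3 (Nor1; chromosome 4, 48045078 to 48086447) was at 35.3 and 18.2 CPM with ozonated oil, against 38.8 and 56.1 CPM with plain oil. The groups did not overlap, but ozonated oil library 1 lay just under plain oil library 1. The log2 change was -0.83 ± 0.36 (SE; edgeR adjusted p = 0.533). Single libraries moved it. Leaving out ozonated oil library 1 gave -1.41, ozonated oil library 2 gave -0.43, and plain oil library 2 gave -0.53.

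Nr4a2 (Nurr1, a factor of dopamine neurons; chromosome 2, 57106830 to 57124003) was at 7.41 and 6.59 CPM with ozonated oil, against 7.58 and 9.20 CPM with plain oil. Its groups were nearly in contact, and the log2 change was -0.26 ± 0.27 (SE; edgeR adjusted p = 0.819). Whether the 3 family members differ in their response was not tested.

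Per length of transcript, Nr4a1 was the most abundant family member in all 4 libraries and Nr4a2 the least. Summed over the family, the level was 22.7 and 16.5 CPM per kb with ozonated oil and 35.6 and 38.0 CPM per kb with plain oil, so both ozonated oil libraries were lower. Nr4a1 made up 63.6% and 69.6% of that sum with ozonated oil and 75.0% and 67.4% with plain oil, and these shares overlapped. Nr4a2 made up 9.16% and 11.2% with ozonated oil and 5.97% and 6.78% with plain oil, so its share was higher in both ozonated oil libraries. Rxrb, an RXR partner of NR4A1 and NR4A2, was at 63.4 ± 14.8 CPM with ozonated oil and 53.1 ± 5.21 CPM with plain oil (SD, n = 2 each; edgeR adjusted p = 0.790).

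Sequences upstream of an annotated start site of the NR4A genes are shown because the 3 genes lay on the same side and share a motif. Promoter sequences for 6 of the 10 genes were found in the RefSeq table of GRCm38.p6. The 250 bases upstream of a start site were searched on both strands for TGACG, the core of the cyclic AMP response element (CRE) bound by CREB and ATF factors. Each NR4A window held 4 cores, the windows of Ier3 and Ier5 held 0, and 3 overlapping windows of Egr2 shared the same 2 cores while its other 2 windows held 0. Among 12331 windows of tested genes, 26.7% held at least 1 core and 0.324% held 4 or more (17.8% and 0.137% of all 32851 windows). The cores are in capitals in the sequences that follow, as TGACG or, on the other strand, CGTCA. Nr4a1 is shown from chr15:101266596-101266845 (plus strand) and Nr4a2 from chr2:57124004-57124253 (minus strand), both 5′ to 3′. For Nr4a3, whose window overlaps an exon of a longer transcript, 30 bases with 2 of the 4 cores are shown, from chr4:48045085-48045114 (plus strand). The Nr4a1 and Nr4a3 stretches lie inside the gene spans given above, so they are upstream of an internal start site.
Nr4a1: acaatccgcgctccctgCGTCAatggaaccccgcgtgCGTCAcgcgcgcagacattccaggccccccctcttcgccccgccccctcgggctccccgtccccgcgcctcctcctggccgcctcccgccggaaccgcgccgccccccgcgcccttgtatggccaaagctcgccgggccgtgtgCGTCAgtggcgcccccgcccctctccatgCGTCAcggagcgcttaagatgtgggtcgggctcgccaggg
Nr4a2: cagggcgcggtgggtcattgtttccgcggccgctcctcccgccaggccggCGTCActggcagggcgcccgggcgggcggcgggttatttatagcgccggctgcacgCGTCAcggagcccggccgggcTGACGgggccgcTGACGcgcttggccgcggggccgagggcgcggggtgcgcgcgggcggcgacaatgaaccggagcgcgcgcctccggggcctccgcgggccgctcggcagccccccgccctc
Nr4a3: cccatgtCGTCAcatTGACGtctcgcattc

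The full CRE, TGACGTCA, which contains the core, was in 0 of the NR4A windows, against 2.61% of windows of tested genes. The AP-1 site TGANTCA was in 0 of the NR4A, IER and EGR windows found, against 4.21%. An EGR site, GCGNGGGCG, was found in the windows of Nr4a1 and Nr4a2 and in 8.88% of windows of tested genes. The CArG box, the site of SRF, was found in 4 of the 5 annotated windows of Egr2, which overlap in part and hold 2 distinct boxes between them, and in 1.13% of windows of tested genes. The NR4A monomer site AAAGGTCA was in 0 of the windows found. The NR4A windows were rich in G and C (74.4% for Nr4a1, 80.0% for Nr4a2 and 63.6% for Nr4a3, against a median of 60% over tested genes), and the core holds a CpG. The motifs were chosen with these sequences in view, and a match is a description of letters, not of binding.

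The IER genes are named for their rapid induction, and their values went different ways. Ier3 (IEX-1, which modulates survival and ERK signalling; chromosome 17, 35821713 to 35822911) was at 71.5 and 193.7 CPM in ozonated oil libraries 1 and 2, against 33.4 and 74.8 CPM in plain oil libraries 1 and 2. Library 2 was the higher of each pair, and ozonated oil library 1 lay under plain oil library 2, so the groups overlapped. The log2 change was 1.29 ± 0.55 (SE; 2.45-fold; edgeR adjusted p = 0.528), the largest in size among the 7. Leaving out ozonated oil library 1 gave 1.81, ozonated oil library 2 gave 0.40, plain oil library 1 gave 0.83 and plain oil library 2 gave 2.0, with no edgeR adjusted p below 0.05 in these fits.

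Ribosomal RNA, like Ier3, was highest in ozonated oil library 2 and lowest in plain oil library 1. The ribosomal RNA precursor Rn45s was at 3819 and 11760 CPM with ozonated oil, against 2379 and 3787 CPM with plain oil. Rn18s, at 340 and 891 CPM against 190 and 326 CPM, was among the 3 tested genes nearest to Ier3 in their pattern over the 4 libraries. The part of ribosomal RNA carry-over in the Ier3 difference was not tested.

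Ier2 (chromosome 8, 84661331 to 84662852), which encodes a nuclear protein induced by growth factors, was at 7.37 and 18.5 CPM with ozonated oil, against 19.2 and 18.4 CPM with plain oil. Ozonated oil library 1 was low, while ozonated oil library 2 was level with the plain oil libraries. The log2 change was -0.54 ± 0.42 (SE; edgeR adjusted p = 0.772). Leaving out ozonated oil library 1 gave -0.06, and ozonated oil library 2 gave -1.36. Ier5 (chromosome 1, 155096367 to 155099636), whose protein binds the heat shock factor HSF1, was at 12.4 and 13.7 CPM with ozonated oil, against 13.6 and 10.5 CPM with plain oil. The groups overlapped, and the log2 change was 0.11 ± 0.25 (SE; edgeR adjusted p = 0.925). Hsf1 itself was at 65.7 ± 6.86 CPM with ozonated oil and 80.7 ± 3.06 CPM with plain oil (edgeR adjusted p = 0.660). The relative Ier5l was at 3.19 ± 0.383 CPM with ozonated oil and 5.75 ± 3.26 CPM with plain oil, and Ier3ip1, an unrelated protein that interacts with IER3, at 67.9 ± 20.1 and 57.7 ± 2.05 CPM.

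Phlda1 (TDAG51, a pleckstrin homology protein linked to cell death and to endoplasmic reticulum and oxidative stress; chromosome 10, 111506286 to 111508649) was at 142 and 237 CPM with ozonated oil, against 121 and 119 CPM with plain oil. Both ozonated oil libraries were higher, library 2 by far more than library 1. The log2 change was 0.66 ± 0.27 (SE; 1.58-fold; edgeR unadjusted p = 0.0472, adjusted p = 0.501). Leaving out ozonated oil library 1 gave 0.95, and ozonated oil library 2 gave 0.24. A long noncoding gene model, Gm28592, overlaps Phlda1 on the opposite strand, and reads of this pair could not be separated if counting ignored strand. Its relative Phlda3 was at 170 and 106 CPM with ozonated oil and 161 and 95.5 CPM with plain oil, and Phlda2 was under the filter.

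**Figure D2:**
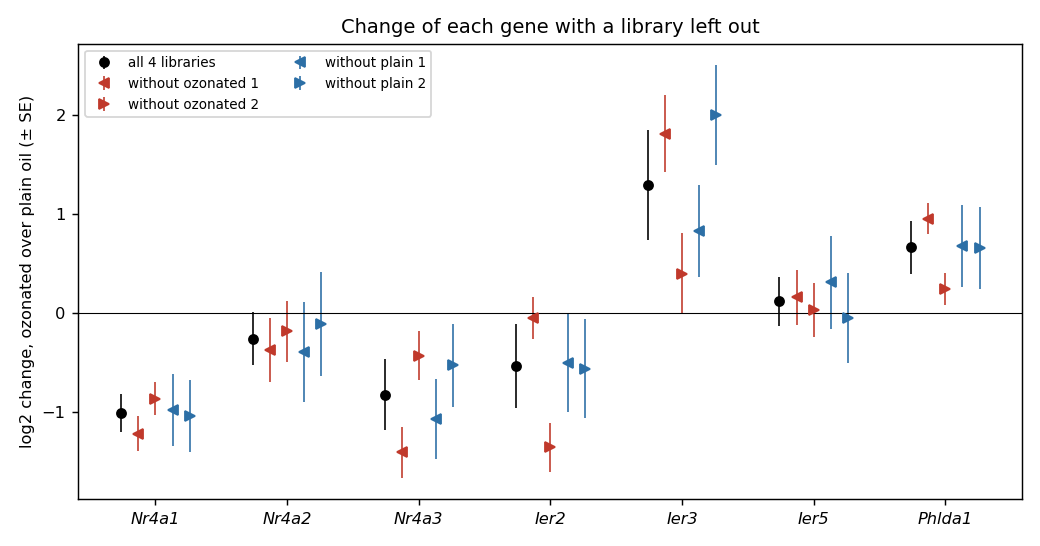
Log2 change of ozonated over plain oil (vertical axis, with SE) for the 7 tested genes, from all 4 libraries (black) and with a library of ozonated oil (red) or plain oil (blue) left out. Nr4a1 stays between -1.22 and -0.87, whereas Ier3 ranges from 0.40 to 2.0 and Ier2 from -1.36 to -0.06.

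Per length, Ier3 and Phlda1 were the most abundant of the 10 genes. Ier3 averaged 117 CPM per kb with ozonated oil and 47.8 with plain oil, and Phlda1 97.3 and 61.5, and their means over all 4 libraries exceeded 92.3% and 91.9% of tested genes. Their order differed between libraries, since Phlda1 was above Ier3 in ozonated oil library 1 and plain oil library 1 and below it in the other libraries. Nr4a1 came next with plain oil at 26.2 CPM per kb (12.96 with ozonated oil), ahead of Ier2 at 12.4 (8.497 with ozonated oil), but in ozonated oil library 2 Ier2 was the higher of the pair, at 12.2 against 11.5 for Nr4a1. Nr4a3 averaged 4.68 CPM per kb with ozonated oil and 8.29 with plain oil, Ier5 3.98 and 3.68, and Nr4a2 1.96 and 2.35. Nr4a3 and Ier5 overlapped with ozonated oil and did not with plain oil. Egr1 was at 0.0535 and 0.0377 CPM per kb, under nearly all tested genes, whose median was 10.7.

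**Figure D3:**
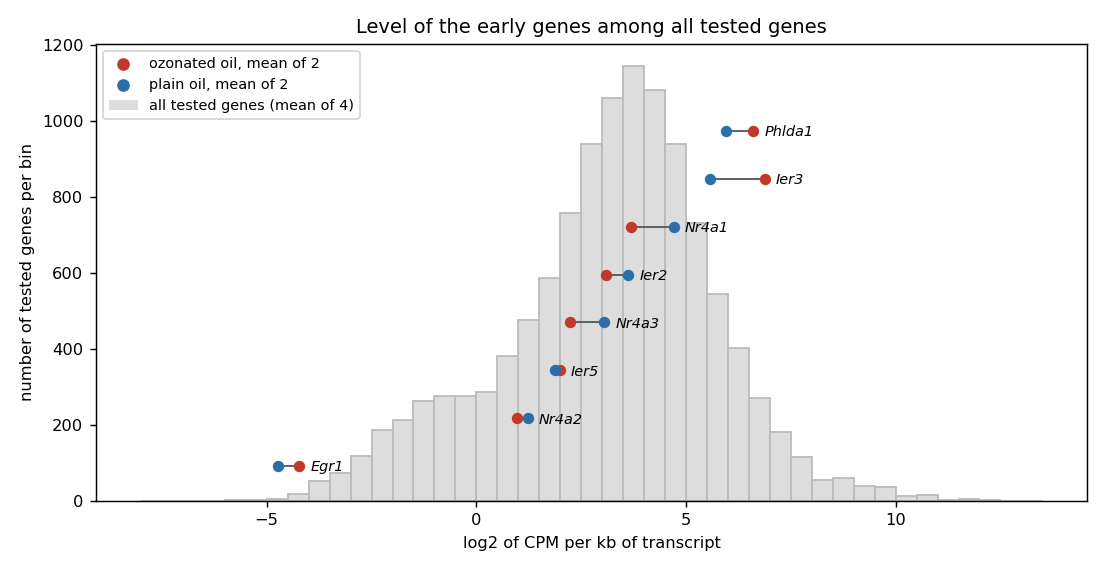
Number of tested genes (vertical axis) by level (horizontal axis, log2 of CPM per kb of transcript, mean of 4 libraries), with group means of 8 early genes marked for ozonated oil (red) and plain oil (blue) at arbitrary heights. Egr1 sits at the low edge, near 0.0535 and 0.0377 CPM per kb, and Ier3 and Phlda1 lie in the upper tail. Egr2 and Egr3, with 0 counts in plain oil, are not drawn.

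Early genes outside these families were read from lists chosen with earlier results of these data known. Of 22 tested early genes of the growth-factor and ERK type, 5 were higher and 17 lower with ozonated oil (median log2 change -1.39), and 13 were lower and 1 (Pvr) higher at an unadjusted edgeR p below 0.05. The stress-type list is broader than immediate-early genes and also holds general stress-response genes such as Hmox1 and Hspa1b. Of its 23 tested genes, 22 were higher and 1 lower, with a median of 1.20, and 18 were higher and 0 lower at that p. The summed level of the stress list was 1261 and 2163 CPM with ozonated oil and 480 and 662.5 CPM with plain oil. This is the order over the libraries that the ribosomal RNA Rn45s had, and the part of ribosomal RNA in it was not tested. The background was 4.54% of all genes higher and 5.29% lower at the same p. In both lists 0 genes passed over the filtered genes with edgeR and group as the sole term (1, Myc, with no filter). DESeq2 called 11 genes of the first list, all lower, and 11 of the second, all higher. The 7 tested genes, with a median of -0.26, lay between these lists. By sign alone, Nr4a1, Nr4a2, Nr4a3 and Ier2 were on the side of the ERK list. Ier3, Ier5 and Phlda1 were on the side of the stress list. The groups overlapped for Ier2, Ier3 and Ier5, and none of the 7 passed the main edgeR test.

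Within the ERK list, Myc was at 9.47 and 15.8 CPM with ozonated oil, against 83.9 and 81.5 CPM with plain oil. Dusp6, a phosphatase that ERK signalling induces and that acts on ERK, was at 9.34 and 6.45 CPM against 62.8 and 37.4 CPM. The ERK pathway brakes Spry2 (0.282-fold), Spred1 (0.522-fold) and Spred2 (0.318-fold) and the matricellular gene Ccn1 (0.314-fold) were lower too. With a library left out, edgeR called Myc in all 4 fits and Dusp6 in 2 of 4 (without ozonated oil library 1 or plain oil library 2). Spry2, Spred1, Spred2 and Ccn1 were called when ozonated oil library 1 was left out and in none of the other 3 fits. Fos, the usual companion of Egr1, was at 1.80 and 3.24 CPM with ozonated oil and 2.54 and 2.35 CPM with plain oil, and the groups overlapped. Within the stress list, Jun was at 160 and 140 CPM against 29.7 and 45.7 CPM, and Atf3, a repressor related to CREB, at 28.7 and 73.6 CPM against 3.60 and 6.97 CPM. Dusp1, a phosphatase of stress kinases, was at 16.9 and 16.5 CPM against 6.23 and 6.13 CPM. Dusp10 (3.20-fold), Hmox1 (6.55-fold) and Hspa1b (5.23-fold, with reads hard to separate from Hspa1a) were higher. On the filtered genes and all 4 libraries, none of the genes in this paragraph passed the edgeR test with group as its sole term. The smallest edgeR adjusted p was 0.166. With no filter on low counts Myc passed (edgeR adjusted p = 0.0494).

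**Figure D4:**
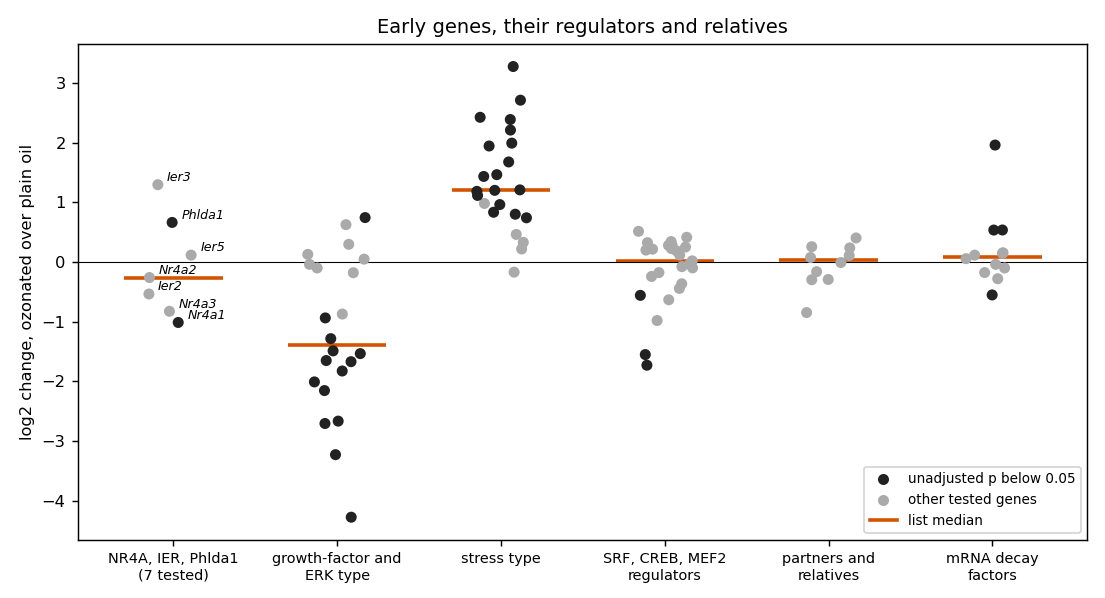
Log2 change of ozonated over plain oil (vertical axis) for each tested gene of 6 lists, with black dots at an unadjusted edgeR p below 0.05, grey dots for other tested genes and an orange bar at each list's median. The early genes of the report spread on both sides of 0, from -1.01 (Nr4a1) to 1.29 (Ier3), between the lower ERK list (median -1.39) and the higher stress list (median 1.20).

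The list of regulators of these genes held SRF, its cofactors, CREB, MEF2, class II deacetylases and kinases. Of its 25 tested genes, 13 were higher and 12 lower, with a median log2 change of 0.02. The list mixes activators with repressors such as Elk3, so this split cannot show whether the activators shared a direction. This split moved with the ozonated oil libraries, to 9 higher and 16 lower (median -0.30) when library 1 was left out and 16 higher and 9 lower (median 0.12) when library 2 was left out. With all libraries, 3 were lower and 0 higher at an unadjusted edgeR p below 0.05, against 5.29% lower and 4.54% higher over all genes tested. Mef2c, which with class II deacetylases controls Nr4a1 in lymphocytes, was at 20.0 and 29.9 CPM with ozonated oil, against 67.1 and 79.6 CPM with plain oil, and its log2 change was -1.55 ± 0.25 (SE; edgeR adjusted p = 0.183). Elk3, a ternary complex factor that represses, was at 15.9 and 8.95 CPM against 50.8 and 31.4 CPM, and its log2 change was -1.73 ± 0.36 (SE; edgeR adjusted p = 0.249). Mef2c and Elk3 were called by DESeq2. Srf was at 29.8 and 37.0 CPM against 48.3 and 50.2 CPM (0.678-fold; edgeR adjusted p = 0.426). Creb1 was at 95.2 and 103 CPM against 75.2 and 95.6 CPM, with overlapping groups. Its cofactors went different ways. Crtc2 was at 44.4 and 46.5 CPM against 36.7 and 38.2 CPM, and Crtc1 at 29.6 and 27.7 CPM against 32.3 and 35.6 CPM. Crtc3 was at 17.9 and 10.2 CPM against 16.6 and 15.2 CPM, and its groups overlapped. Sik1, a CREB target kinase, was at 10.9 and 3.99 CPM against 16.8 and 12.4 CPM (edgeR adjusted p = 0.589). Rps6ka5 (1.43-fold), a kinase of CREB, and Mapk3 (1.25-fold), which encodes ERK1, completed the 6 with the smallest p. Of 10 tested partners and relatives of the early genes, 5 were higher and 5 lower. At an unadjusted edgeR p below 0.05 there were 0, against 9.82% of all genes tested.

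The genes outside the NR4A family also shared a compact structure. A coding transcript of 3 exons or fewer was annotated for 7 of the 10 (GENCODE vM21, GRCm38), against 12.3% of tested genes. The exceptions were the NR4A genes with 8 exons each, near the median of 9 over tested genes. Gene spans ran from 1240 bases for Ier3 to 41295 for Nr4a3, and 9 of 10 were under the median of 24750. In the 3′ UTR, 8 of 10 had more of the AU-rich pentamer ATTTA per kb than the median tested gene (1.37 per kb). Ier3 had the most, at 8.16 per kb (5 copies), followed by Nr4a1 at 5.53 and Phlda1 at 4.90, and Ier2 had 0. The longer AU-rich element TTATTTATT occurred in Phlda1 and in 8.44% of tested genes, and its site, from chromosome 10 (plus strand), is shown with the element in capitals as the only such site among the 10.
Phlda1: tggattatgaTTATTTATTagttttttta
The 3 genes richest in ATTTA were Nr4a1 (lower) and Ier3 and Phlda1 (higher), and the Ier3 groups overlapped. Whether ATTTA content goes with direction was not tested. Among 12 factors that act on such mRNAs, 7 were higher and 5 lower. The deadenylation cofactor Btg1 was at 30.8 and 58.2 CPM with ozonated oil, against 9.62 and 13.3 CPM with plain oil (3.89-fold; edgeR adjusted p = 0.206). Tob1 (1.45-fold) and Tob2 (1.45-fold) were higher and Zfp36l2 (0.682-fold), a decay factor that binds AU-rich elements, lower at an unadjusted p below 0.05. Hnrnpd (0.823-fold) and Elavl1 (0.884-fold) had unadjusted p-values above it.

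The tested genes with the most similar pattern were found by Euclidean distance between log2 CPM values centred on each gene's mean, over 4 libraries and 9935 genes with a mean of at least 5 CPM. With 4 libraries the ranking is a description. Nr4a1 was nearest to Sppl2b (distance 0.0433), Ptpn9 and Trip13, and 28 genes lay within 0.2 of it. Nr4a3 was nearest to Scn1a (0.114), Amer1 and Tarbp1, and Nr4a2 to Zfp715, Arhgap26 and Ercc3. Phlda1 was nearest to H2az2 (0.0547), Spsb2 and Ubald2, and Ier5 to Aifm2, Poll and Uchl1. Ier3 and Ier2 had no gene within 0.2, with Mgarp (0.249), Rn18s and Tcp11l2 nearest to Ier3 and Sdhaf1 (0.342), Snhg20 and Ovca2 nearest to Ier2.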

How the data were processed

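RNA sequencing libraries were made with a directional kit, per the labels' protocols. The submitters' processing notes list StringTie 1.3.4d, HISAT2 2.1.0, bedtools 2.27.1, SAMtools 1.9, edgeR, FastQC 0.11.7 and bcl2fastq, and build mm10. The deposited table holds raw whole-number counts per gene. Which program counted reads, on which annotation and with which strand setting, was not stated there or in the labels.

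In R 4.3.3, genes were filtered with filterByExpr of edgeR 4.0.16 (12675 kept) and normalised with TMM factors. The quasi-likelihood F-test (two-sided) had group as its sole term, and p-values were adjusted over all genes by Benjamini-Hochberg, with a threshold of 0.05. Unadjusted p-values are from the same test. Changes are log2 of ozonated over plain oil, with the standard error taken from the F statistic. CPM uses scaled library sizes, except in intervals, which use raw totals. Centred values are log2(CPM + 0.5). CPM per kb uses the longest coding transcript of GENCODE vM21. With 2 libraries against 2, an exact permutation test cannot go below p = 0.333. Genes without a symbol (1319) held 0.197% to 0.218% of counts. No library pair was identical (chi-square per degree of freedom 120.4 for ozonated oil and 37.0 for plain oil).

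The members and lists were chosen with earlier results of these data known. Named genes are the 10 early genes, Myc, Jun, Atf3, Dusp1, Dusp6 and Fos, up to 6 per list with the smallest p, and up to 3 nearest genes per tested member. Pvr, Creb1, Crtc1, Crtc2, Crtc3, Mef2a, Mef2d, Phlda3, Phlda2, Rn45s and the marker genes were named after their values were seen. Alternatives were median-of-ratios scaling, other filters, a replicate block, DESeq2 1.42.0, and each library left out, where a lone library borrows the spread of the other pair. The fit was also run on counts simulated from the levels and spread of these data.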

Additional observations from a re-analysis of the deposited data

How the results depend on the processing

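With all genes, edgeR called 0 genes, and 0 with median-of-ratios scaling or a filter of 1 CPM in 2 libraries. It called 4 with no filter, Myc among them, and 1 to 389 with a library left out (389 without ozonated oil library 1, at most 37 otherwise), while DESeq2 called 271. Of the 7 tested early genes DESeq2 called 1, and leaving out a library gave 0 to 3. At an unadjusted p below 0.05 the early genes numbered 2, against 4 with no filter, 4 with DESeq2 and 2 to 4 with a library left out, and all genes numbered 441 to 3159 with a library left out. The median log2 change of the 7 ran from -0.394 (without plain oil library 1) to -0.056 (without ozonated oil library 1) with a library left out. The causes were not tested. Nr4a1, Nr4a2, Nr4a3, Ier2, Ier3 and Phlda1 kept their direction in every alternative run. Ier5 ran from -0.0521 to 0.307, Fos from -0.452 to 0.374 (-0.00431 without plain oil library 2), Rxrb from -0.0141 to 0.444 and Ier3ip1 from -0.113 to 0.478 with a library left out, and so changed sign.

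The replicate number as a block gave 1160 calls over all genes and 2632 genes at an unadjusted p below 0.05. It called 4 of the 7 early genes (Nr4a1, Nr4a3, Ier3 and Phlda1), and 5 had an unadjusted p below 0.05. The block also called 14 of 22 genes of the ERK list (13 lower and 1 higher) and 18 of 23 of the stress list, all higher. Same-numbered libraries deviated together (correlation 0.446 over 12675 genes), but with 2 pairs and no label that ties the numbers to a shared culture or day, the pairing is not part of the design. EGR genes were limited by depth, with at most 18 counts in a library over all 3.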
